A study of Arabidopsis thaliana with 30 samples.

Results

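Shoots of ethanol-pretreated Arabidopsis thaliana were compared with shoots of water-pretreated plants 5 d after watering had stopped (5 DAD, days after drought). The comparison holds 6 of the 30 RNA-seq libraries of the series, 3 per treatment, chosen by their labelled treatment and day. Both groups were wild-type Col-0 plants raised for 10 d on medium and for 5 d in ceramic granular soil, and their roots were then kept for 3 d either in 10 mM ethanol or in water before drought began. The water-pretreated group therefore went through the same immersion and the same drought, and no library of continuously watered plants is part of the comparison. The remaining libraries cover 0, 1, 3 and 7 DAD in the same layout, and they were used here to share the estimate of replicate spread and to set the 5 DAD values in the time course. The labels number the libraries 1 to 3 and do not say whether they came from separate pots, so p-values measure the spread between libraries. This spread was pooled for each gene over all 10 groups, and the 5 DAD libraries may spread more or less widely than the pooled value.

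When soil dries, leaves accumulate abscisic acid (ABA), which binds PYR/PYL receptors, blocks clade A PP2C phosphatases and so frees SnRK2 kinases to activate ABF transcription factors. Their targets include genes for dehydrins and other late embryogenesis abundant (LEA) proteins, which protect membranes and enzymes during water loss. A parallel route runs through DREB factors, which bind the dehydration-responsive element (DRE), whereas ABF factors bind the ABA-responsive element (ABRE). Genes of photosynthesis and growth are turned down as drought deepens. A further set of calcium-binding, ERF, ZAT and WRKY genes reacts within minutes to touch, wounding and other abrupt stimuli and is a common early layer of stress signalling.

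The 6 libraries held 6409081 to 13061181 counts over 27417 genes, of which 19249 passed the filter on low counts and were tested. Levels are given as CPM, the usual rate of counts over the scaled library size, and are compared between libraries for 1 gene but not between genes. Of 13 root marker genes, 6 had no count in any of the 6 libraries, among them the root hair genes EXPA7, EXPA18 and LRX1, and the summed level of the list was 0.617 to 2.24 CPM in the ethanol libraries and 0.726 to 2.38 CPM in the water libraries. All 10 floral organ markers were counted, with a summed level of 160 to 188 CPM in the ethanol libraries and 137 to 243 CPM in the water libraries. Water replicate 2 had the highest floral sum, and in bulk tissue fewer cells of a type and less RNA per cell cannot be told apart. Water replicate 3 stood apart from the other water libraries in several of the gene groups described below.

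At 5 DAD the treatments differed by about as much as replicates of the same treatment. None of the 19249 genes (0%) was called by edgeR's quasi-likelihood test at a Benjamini-Hochberg adjusted p under 0.1, and the lowest adjusted p from that edgeR test was 0.219. At an unadjusted p under 0.05, 415 genes (2.16%) were higher and 368 (1.91%) were lower in the ethanol libraries, 783 in all (4.07%). The CPM of the 3 ethanol libraries did not overlap those of the 3 water libraries for 1080 genes higher with ethanol (5.61%) and for 953 genes lower with ethanol (4.95%). These shares over all genes are the background for each count of list members below. The log2 fold change was below 0 for 9700 genes (50.4%). The DESeq2 Wald test, run as an alternative, called 11 of the 10447 genes to which it gave an adjusted p (0.105%).

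The precision was sufficient to bound most genes. The standard error of the log2 fold change had a median of 0.258, with quartiles of 0.178 and 0.442. For 12794 genes (66.5%) the 95% confidence interval lay wholly between -1 and 1 on the log2 scale. For 32 genes it lay wholly beyond a log2 fold change of 1, with 9 genes higher and 23 lower in the ethanol libraries. These intervals were not adjusted for the 19249 genes tested, and none of the 32 genes was called. The median size of the log2 fold change was 0.17 at 5 DAD, compared with 0.25, 0.16, 0.19 and 0.79 at 0, 1, 3 and 7 DAD. The root mean square log2 difference between a pair of 5 DAD libraries was 0.561 to 0.684 within the ethanol group, 0.653 to 0.700 within the water group and 0.577 to 0.751 between the groups, so that the ranges overlapped.

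The extent of the whole drought response was measured by projecting each library on the axis that runs from the water-pretreated shoots at 0 DAD (0) to those at 7 DAD (1). At 5 DAD the ethanol libraries stood at 0.292, 0.216 and 0.232 and the water libraries at 0.295, 0.352 and 0.231. The groups overlapped, with means of 0.247 ± 0.040 for ethanol and 0.293 ± 0.061 for water (SD, n = 3 each), and the difference of -0.046 gave p = 0.3 in an exact two-sided permutation test, which cannot go below 0.1 with these group sizes. Leaving out 1 library moved this difference between -0.077 (without water replicate 3) and -0.016 (without water replicate 2), and it was -0.031 without ethanol replicate 2. At 7 DAD the water libraries had moved to between 0.947 and 1.04, whereas the ethanol libraries were at 0.352 to 0.491. Every library of both groups was therefore less than midway along the axis at 5 DAD.

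**Figure D1:**
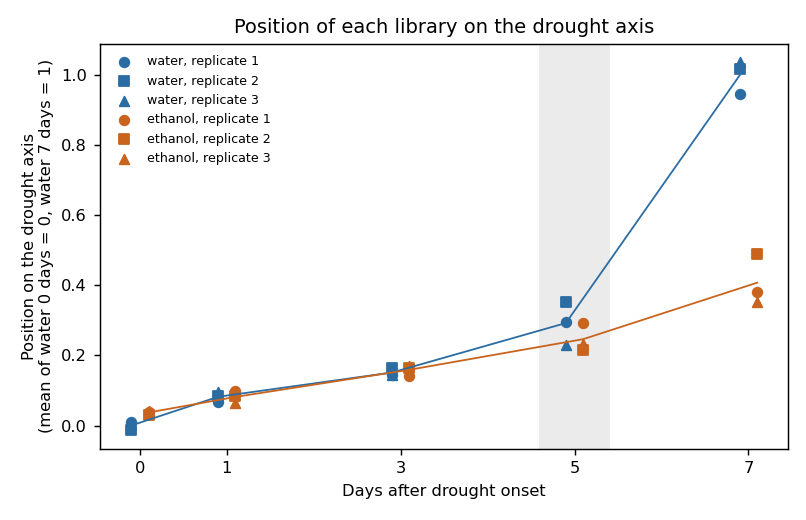
Position of each of the 30 libraries on the drought axis (y, no unit; mean of water 0 DAD = 0, mean of water 7 DAD = 1) against days after drought onset (x), with symbols for replicates and lines through group means. At 5 DAD (shaded) the 3 ethanol libraries (0.216 to 0.292) and the 3 water libraries (0.231 to 0.352) overlapped, and the groups separated at 7 DAD.

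Genes that respond to drought between 0 and 7 DAD in the water-pretreated shoots were next examined at 5 DAD, a harvest that had no part in choosing them. Of 4233 genes induced by at least 1 on the log2 scale, 63.2% had a 5 DAD fold change below 0, with a median of -0.09. At an unadjusted p under 0.05, 201 (4.75%) were lower and 50 (1.18%) higher. Of 5011 repressed genes, 39.6% had a fold change below 0, with a median of 0.06. At that p 198 (3.95%) were higher and 46 (0.918%) lower, against 2.16% higher and 1.91% lower over all genes. The shares below 0 stood on either side of the 50.4% of all genes, and the shifts were small. For the 1187 genes induced by at least 3 on the log2 scale the median was -0.32. The mean log2 CPM of these 1187 genes was 1.6, 1.20 and 1.29 in the ethanol libraries and 1.42, 2.03 and 1.3 in the water libraries. The group values overlapped, with water replicate 2 above and water replicates 1 and 3 within the range of the ethanol libraries. The median of the 4233 induced genes was -0.04 without water replicate 2 and -0.14 without ethanol replicate 1.

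The dehydrin and LEA genes and the other drought markers were lower on average in the ethanol libraries, a difference carried by water replicates 1 and 2. RAB18 (AT5G66400), a dehydrin gene used as an ABA reporter, was at 230, 174 and 217 CPM in the ethanol libraries and at 757, 857 and 158 CPM in the water libraries. Water replicates 1 and 2 had begun to accumulate the transcript, whereas water replicate 3 was below the ethanol libraries. The log2 fold change of RAB18 was -1.51 ± 0.49 (SE), with an unadjusted p of 0.0042 and an adjusted p of 1 in the edgeR test. This SE and p rest on the spread pooled over all 10 groups, not on the 5 DAD libraries alone. RAB18 was at 185, 162 and 181 CPM in the water libraries of 3 DAD. In the ethanol libraries of 7 DAD it was at 238, 1940 and 275 CPM. The spread of the water libraries at 5 DAD may therefore be understated. For comparison, RAB18 had a mean of 134 CPM at 0 DAD and 31300 CPM at 7 DAD in water-pretreated shoots.

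RD29A and RD29B, neighbouring genes for hydrophilic stress proteins, are the standard reporters of the DREB and ABA routes. Their upstream windows are shown because they carry the elements through which these routes act. Each window holds the 250 bases before the annotated gene start, from the RefSeq annotation of the TAIR10.1 assembly, plus strand, at chr5:21240467-21240716 for RD29A and chr5:21236771-21237020 for RD29B. Capitals mark the DRE core ACCGAC and the ABRE core ACGTG, on either strand, and the sequences read 5′ to 3′:
RD29A: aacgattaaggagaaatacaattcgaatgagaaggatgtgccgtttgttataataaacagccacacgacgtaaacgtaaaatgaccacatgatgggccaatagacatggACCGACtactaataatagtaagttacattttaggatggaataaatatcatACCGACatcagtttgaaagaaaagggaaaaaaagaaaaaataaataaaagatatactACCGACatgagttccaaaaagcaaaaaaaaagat
RD29B: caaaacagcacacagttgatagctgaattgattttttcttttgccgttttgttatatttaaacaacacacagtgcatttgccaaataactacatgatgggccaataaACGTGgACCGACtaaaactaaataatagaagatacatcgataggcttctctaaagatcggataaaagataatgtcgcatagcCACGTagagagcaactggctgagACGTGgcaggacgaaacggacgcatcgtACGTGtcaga

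The RD29A window holds 3 DRE cores and 0 ABRE cores, and the RD29B window holds 4 ABRE cores and 1 DRE core. Over the windows of 19069 tested genes, 24% hold the ABRE core and 5.3% the DRE core. Of the 13 dehydrin and LEA genes 9 hold the ABRE core and 2 the DRE core, and of the 13 other drought markers 5 hold each. A match is a string of letters and says nothing of binding.

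RD29A was at 608, 302 and 465 CPM in the ethanol libraries and at 769, 691 and 440 CPM in the water libraries, which overlapped (log2 fold change -0.47 ± 0.30, SE). RD29B was at 24, 15 and 15 CPM with ethanol and at 64, 67 and 13 CPM with water (log2 fold change -1.41 ± 0.66, SE, unadjusted p = 0.042 by edgeR). RD29A had already climbed by 3 DAD, from a mean of 49.3 CPM at 0 DAD to 501 CPM in water-pretreated shoots. RD29B, in contrast, was at 15.1 CPM at 3 DAD and 48.1 CPM at 5 DAD, and reached 2370 CPM at 7 DAD. At 5 DAD RD29B was near the start of its course, since its 0 DAD mean was 12.7 CPM, and water replicates 1 and 2 were the libraries that stood well above that mean.

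Of the 13 dehydrin and LEA genes, all tested, 12 had a fold change below 0, and the median was -0.42. At an unadjusted p under 0.05, 3 were lower, namely RAB18, LTI30 and LEA4-5, against 1.91% of all genes. Fold changes ran from -1.51 for RAB18 to 0.12 for COR15B, which encodes a chloroplast cryoprotective protein. The CPM values of the treatments overlapped for all 13. The mean log2 CPM over the list was 7.55, 7.02 and 7.29 in the ethanol libraries and 7.98, 8.11 and 7.17 in the water libraries. Water replicate 3 was the lowest water library for 11 of the 13 genes. The count of genes lower at that p was 6 without ethanol replicate 1, 1 without ethanol replicate 2, 2 without ethanol replicate 3, 1 without water replicate 1, 2 without water replicate 2 and 7 without water replicate 3. The median was -0.23 without ethanol replicate 2 and -0.25 without water replicate 1.

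The 13 other drought markers, all tested, leaned the same way. The fold change was below 0 for 12 of them, with a median of -0.57. Against 1.91% of all genes, 5 of the 13 were lower at an unadjusted p under 0.05. These were RD29B, the BURP-domain gene RD22, the caleosin gene RD20, the lipid transfer protein gene LTP3 and the homeobox gene HB-7 (AT2G46680). LTP3 was at 1010, 580 and 487 CPM in the ethanol libraries and at 1690, 2130 and 536 CPM in the water libraries, with a log2 fold change of -1.07 ± 0.33 (SE). Of the whole list, RD20 alone did not overlap, with 229, 171 and 201 CPM against 287, 356 and 269 CPM. The highest fold change was 0.04, for COR413IM1. Water replicate 3 was the lowest water library for 13 of 13 genes, and the count at that p was 8, 1 and 2 without ethanol replicates 1, 2 and 3 and 2, 0 and 9 without water replicates 1, 2 and 3. Over all genes tested, the share lower at an unadjusted p under 0.05 was 2.38%, 1.75% and 1.85% without ethanol replicates 1, 2 and 3, and 1.74%, 1.38% and 2.47% without water replicates 1, 2 and 3. What sets water replicate 3 apart was not tested.

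**Figure D2:**
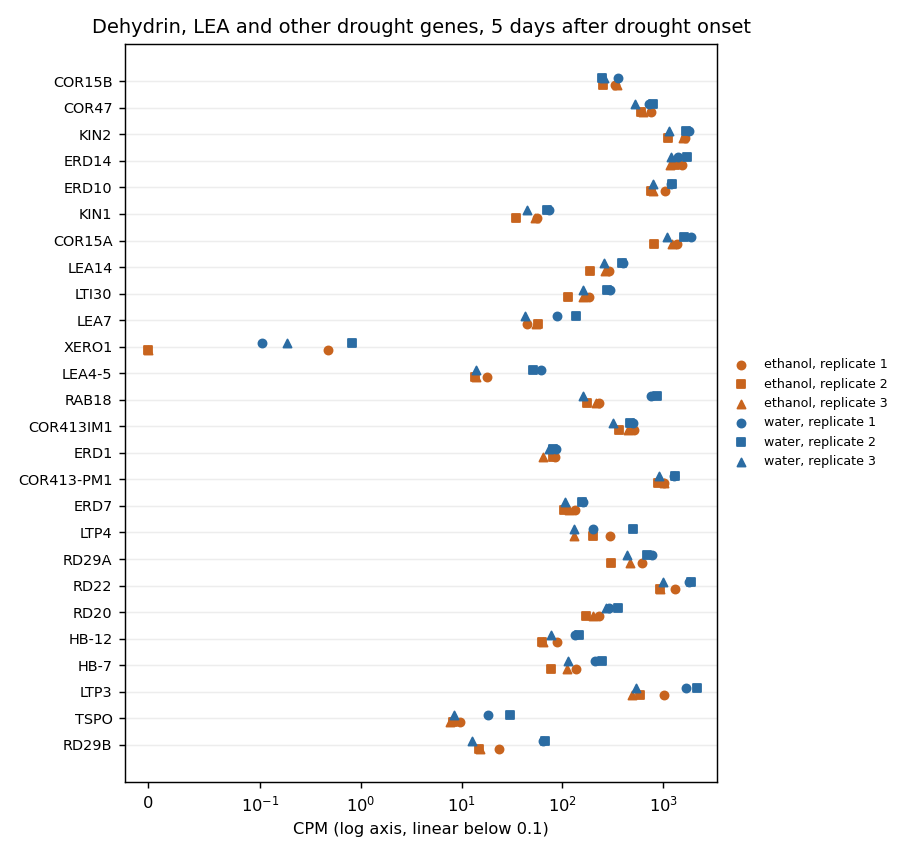
CPM (x, log axis that is linear below 0.1) of the 13 dehydrin and LEA genes (upper rows) and the 13 other drought markers (lower rows) in each 5 DAD library, each list ordered by fold change. Water replicate 3 (triangles) lies at or near the ethanol libraries for most genes, and only RD20 has ethanol and water values that do not overlap.

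The genes of ABA supply and signalling pointed in mixed directions, with small list medians. The sign of each median was opposite to that of the median log2 change from 0 to 7 DAD in water-pretreated shoots. That change was 1.53 for synthesis, 1.14 for breakdown and conjugation, -2.03 for receptors, 5.85 for phosphatases and 1.99 for SnRK2 and ABF genes. The breakdown median did not hold its sign, being 0.02 without ethanol replicate 3. NCED3, the rate-limiting enzyme gene of drought-induced ABA synthesis, was at 14.2, 10.6 and 16.9 CPM in the ethanol libraries and at 25.9, 27.8 and 17.1 CPM in the water libraries. The groups did not overlap, although ethanol replicate 3 and water replicate 3 were close, and the log2 fold change was -0.75 ± 0.39 (SE, unadjusted p = 0.066 by edgeR). Of the 10 synthesis genes 6 were tested, since NCED2, NCED5, NCED6 and NCED9 were removed by the filter on low counts, and the median of the 6 was -0.14. In the fits that left out 1 library, 8 of the 10 genes passed the filter, so those medians are not over the same 6 genes. The median of the 8 was -0.57 without ethanol replicate 1 and -0.06 without ethanol replicate 2. It was -0.08 without water replicate 1 and -0.25 without water replicate 2. ABA4, which acts earlier in the pathway, was higher at an unadjusted p under 0.05 (0.36 ± 0.17, SE). In the catabolic list CYP707A3, an ABA 8′-hydroxylase gene, was at 10.0, 6.36 and 7.50 CPM with ethanol and at 4.15, 2.28 and 1.77 CPM with water. It was the sole member of the 6 breakdown and conjugation genes past that p, with a log2 fold change of 1.57 ± 0.57 (SE), while the median of the list was -0.06.

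The medians of the receptors and of their phosphatase targets stood on opposite sides of 0. Of 9 PYR/PYL receptor genes, 7 had a fold change above 0, and the median was 0.28. PYL1, PYL2 and PYL4 were higher at an unadjusted p under 0.05, against 2.16% of all genes. PYL6 had the lowest fold change (-1.13), with means of 0.58 CPM with ethanol and 1.22 CPM with water. Without overlap, 1 of the 9 was higher and 1 lower. PYL4 was at 14.1, 24.8 and 15.5 CPM in the ethanol libraries and at 8.30, 12.4 and 15.9 CPM in the water libraries, which overlapped through water replicate 3. PYL2 was at most 1.77 CPM in any of the libraries. Without water replicate 1, and likewise without water replicate 2, 0 of the 9 were past that p, and the median was 0.25 and 0.21. Without ethanol replicate 2 the count was 1, and without water replicate 3 it was 4, with a median of 0.23. Of 9 clade A PP2C genes 8 had a fold change below 0, with a median of -0.35. HAI1, an ABA-induced member, was at 26.4, 16.6 and 27.9 CPM with ethanol and at 66.0, 68.8 and 31.1 CPM with water (-1.21 ± 0.58, SE), without overlap, and its mean was 1110 CPM in water-pretreated shoots at 7 DAD. AHG1, a mainly seed-expressed member at no more than 0.680 CPM, alone had a fold change above 0 (2.44 ± 1.07, SE). HAI1 was lower and AHG1 higher at an unadjusted p under 0.05, but the count of lower genes was 0 without any 1 of the 3 ethanol libraries, without water replicate 1 or without water replicate 2. Without water replicate 3 that count was 3 and the median -0.59. The SnRK2 and ABF list of 8 had a median of -0.17 and no member at an unadjusted p under 0.05, and ABF2 had the lowest fold change (-0.56 ± 0.34, SE). Water replicate 3 was the lowest water library for all 8, and the median was -0.23 with 1 gene lower at that p without it and -0.09 without ethanol replicate 2.

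The DREB and stress NAC factors showed no common shift, with a median of -0.07 over 16 genes and 0 at an unadjusted p under 0.05. DREB2A, a drought-induced activator, was at 9.05, 2.51 and 4.62 CPM in the ethanol libraries and at 7.78, 9.93 and 6.69 CPM in the water libraries, and DREB1A, best known from cold, had a log2 fold change of 0.03 ± 0.30 (SE). Their 95% intervals covered 0. In the proline list, P5CS1, which makes the precursor of the osmolyte, was at 405, 229 and 411 CPM with ethanol and at 649, 729 and 444 CPM with water. P5CS1 did not overlap between treatments (-0.80 ± 0.33, SE, unadjusted p = 0.022 by edgeR), whereas ERD5, a proline dehydrogenase gene, was higher with ethanol at 10.4, 11.2 and 7.91 CPM against 7.67, 5.48 and 5.39 CPM (0.67 ± 0.31, SE). The median over the 9 proline genes was -0.04. Among 6 tested genes of galactinol and raffinose synthesis and hydrolysis, GolS3 was higher (47.3, 28.5 and 30.9 CPM against 28.1, 15.5 and 22.8 CPM), at a log2 fold change of 0.69 ± 0.26 (SE). DIN10 was the other member past that p, at 0.43 ± 0.17 (SE), and the list median was -0.26. This median did not hold its direction, being 0.16 without water replicate 3 and -0.0044 without ethanol replicate 2, and 0 genes were past that p without water replicate 2.

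Among the genes that can carry ethanol into metabolism, ADH1 alone was past an unadjusted p of 0.05. ADH1, the alcohol dehydrogenase that interconverts ethanol and acetaldehyde, was at 21.1, 15.7 and 22.3 CPM in the ethanol libraries and at 29.4, 40.2 and 25.1 CPM in the water libraries. The groups did not overlap, and the log2 fold change was -0.67 ± 0.28 (SE, unadjusted p = 0.022, adjusted p = 1 by edgeR). The aldehyde dehydrogenase genes ALDH2B4, ALDH2B7 and ALDH2C4 stood at -0.08 ± 0.12, -0.02 ± 0.28 and 0.10 ± 0.17 (SE). The median over the 8 tested genes of the route to acetyl-CoA was -0.08, and over 8 tested genes of the glyoxylate cycle and gluconeogenesis it was 0.00, with 0 genes of the latter at an unadjusted p under 0.05. PMDH2, a peroxisomal malate dehydrogenase gene, was at 1070, 1140 and 1100 CPM against 1200, 1180 and 976 CPM.

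The 16 genes that the study itself singled out cut across these lists. Because the study picked them partly on these samples, their count is not independent evidence of direction. Of the 16, 12 had a fold change below 0 at 5 DAD, with a median of -0.34, and RD29B, P5CS1 and ADH1 were lower and GolS3 higher at an unadjusted p under 0.05. The count of lower genes was 5, 0 and 2 without ethanol replicates 1, 2 and 3 and 1, 0 and 7 without water replicates 1, 2 and 3, and the median ran from -0.53 without ethanol replicate 1 to -0.19 without water replicate 1. Water replicate 3 was the lowest water library for 13 of the 16. MYC2, a factor of ABA and jasmonate signalling, was at 66.7, 52.2 and 62.3 CPM with ethanol and at 52.3, 48.1 and 58.2 CPM with water (0.19 ± 0.30, SE). ABI1 had a log2 fold change of -0.21 ± 0.24 and LEA7 of -0.77 ± 0.44 (SE).

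The rapid touch and wound list had the highest median of the 34 pathway lists. Of its 17 genes, all tested, 15 had a fold change above 0, with a median of 0.67. There were 6 genes higher at an unadjusted p under 0.05 and 7 higher without overlap, against 2.16% and 5.61% of all genes. ERF104, an ethylene response factor released by a stress-activated kinase, was at 28.9, 23.2 and 42.8 CPM in the ethanol libraries and at 6.53, 5.28 and 8.00 CPM in the water libraries. Every ethanol library was above every water library, and the log2 fold change was 2.26 ± 0.45 (SE), with an adjusted p of 0.219 by edgeR. TCH4, a cell wall xyloglucan endotransglucosylase gene induced by touch, was at 27.0, 18.6 and 60.1 CPM against 14.5, 11.2 and 15.3 CPM (1.37 ± 0.44, SE). The calmodulin-like genes TCH2 and CML38 stood at 1.07 ± 0.33 and 1.80 ± 0.59, ERF6 at 1.38 ± 0.59 and the zinc finger gene SZF2 at 0.67 ± 0.31 (SE). ZAT11 had the lowest value (-0.85 ± 1.11, SE), at no more than 0.621 CPM in any of the libraries.

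The mean log2 CPM over the 17 genes was 3.33, 3.41 and 3.32 in the ethanol libraries and 2.31, 2.18 and 3.14 in the water libraries. The ethanol libraries were close to each other, and water replicate 3 was again the water library nearest to them, with the highest water value for 16 of the 17 genes. Without water replicate 3 the median was 1.13 and 8 genes were higher at an unadjusted p under 0.05. The count was 4, 5 and 5 without ethanol replicates 1, 2 and 3 and 4 without water replicate 1 or 2, against shares over all tested genes of 2.19%, 1.81% and 1.88% without ethanol replicates 1, 2 and 3 and 1.77%, 2.23% and 2.56% without water replicates 1, 2 and 3.

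**Figure D3:**
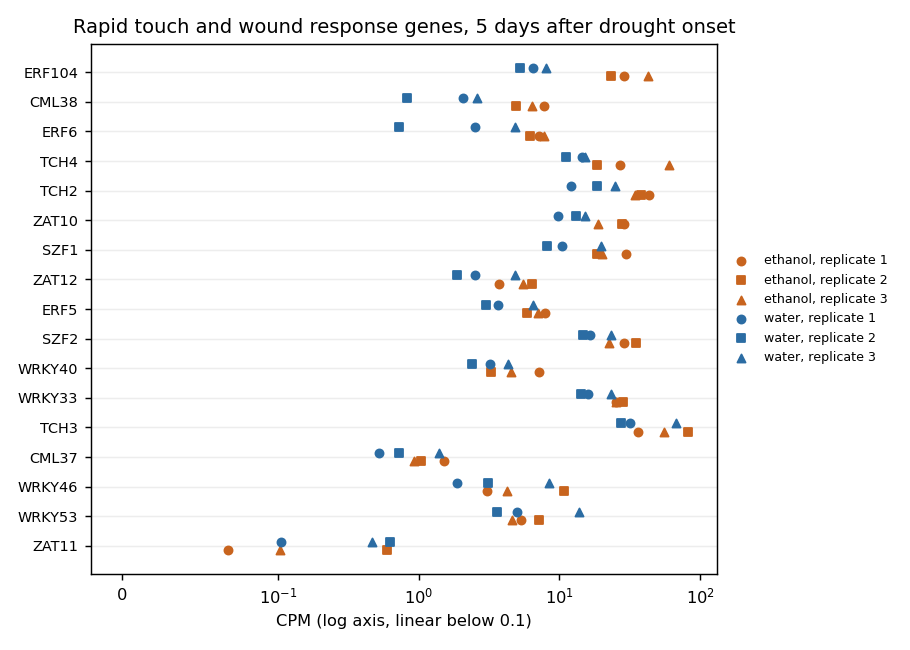
CPM (x, log axis that is linear below 0.1) of the 17 rapid touch and wound genes in each 5 DAD library, ordered by fold change. For 7 genes, ERF104 at the top among them, all ethanol values exceed all water values, and water replicate 3 (blue triangles) is the highest water library for 16 of the 17.

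Over the time course the same list had a median fold change of -0.40 at the start of drought, -0.08 after 1 d, 1.92 after 3 d, 0.67 after 5 d and 0.40 after 7 d. At 3 DAD 11 of the 17 were called higher in the edgeR test at an adjusted p under 0.1, compared with 171 of all genes called higher (0.888%) and 20 called lower (0.104%). The 5 DAD effect was not called different from the 3 DAD effect for any of the 17. In water-pretreated shoots ERF104 had a mean of 71.8 CPM on day 1, 18 CPM on day 3, 6.6 CPM on day 5 and 27 CPM on day 7, whereas in ethanol-pretreated shoots the means were 59, 63.1, 31.7 and 56.1 CPM. With either pretreatment the mean of ERF104 was lowest at 5 DAD among the 5 harvests.

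**Figure D4:**
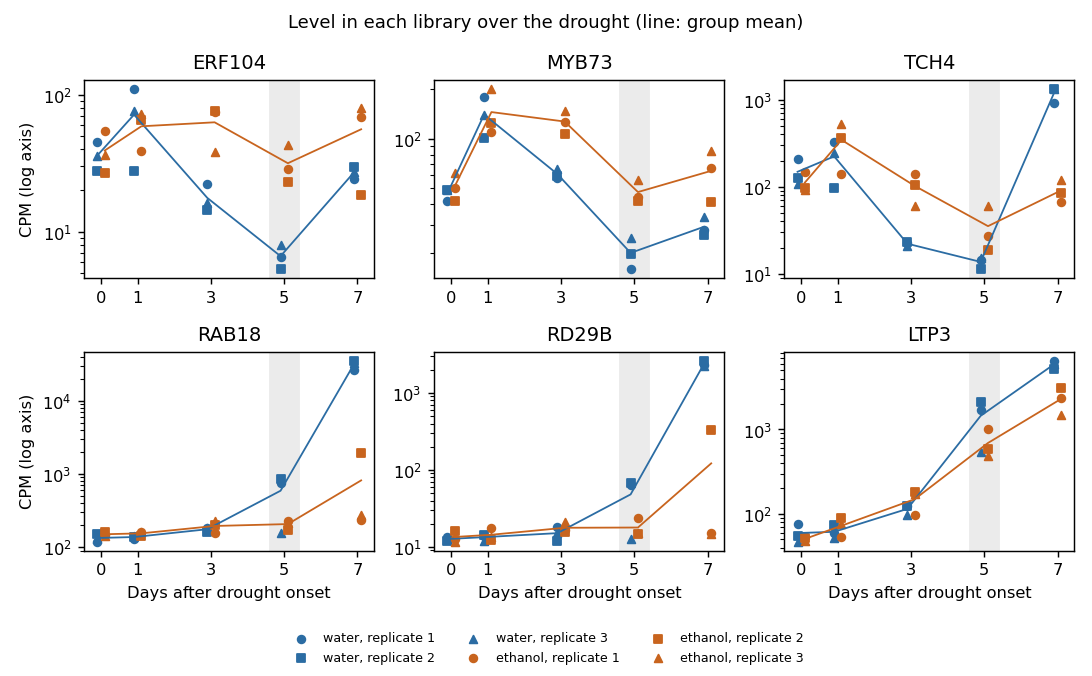
CPM (y, log axes) of 6 genes in all 30 libraries against days after drought onset (x), with lines through group means and 5 DAD shaded. At 5 DAD the ethanol points of ERF104 and MYB73 lie above the water points without overlap, and for RAB18, RD29B and LTP3 water replicate 3 lay at or near the ethanol libraries while the other 2 water libraries were higher.

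The 11 genes called by the DESeq2 Wald test included 9 higher and 2 lower with ethanol, and none of them was called in the main edgeR fit. MYB73, a MYB factor, had the lowest DESeq2 adjusted p (0.0040), with 44.1, 41.9 and 55.9 CPM against 16.0, 19.8 and 24.7 CPM and a log2 fold change of 1.23 ± 0.24 (SE). RAV2, an AP2/B3 repressor also called TEM2, was at 33.9, 61.5 and 42.3 CPM against 15, 18.5 and 24.6 CPM (1.23 ± 0.27, SE). AT5G51190, an ERF subfamily B-3 member in the annotation, was at 19.7, 9.17 and 19.2 CPM against 3.94, 2.38 and 2.42 CPM (2.47 ± 0.57, SE). AT4G27280, annotated as a calcium-binding EF-hand protein, was at 53.7, 45.8 and 85.3 CPM against 10.4, 12.0 and 19.5 CPM (2.14 ± 0.50, SE). In each of these 4 genes the ethanol values were all above the water values.

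Besides ERF104, the other 6 had smaller fold changes. BT5, TPS8 of the trehalose phosphate synthase family, the galacturonosyltransferase gene GAUT15 and AT2G30930, an uncharacterized protein, were higher with ethanol by 1.11 ± 0.28, 0.51 ± 0.13, 0.72 ± 0.17 and 0.78 ± 0.19 on the log2 scale (SE). AT1G68570, annotated as a major facilitator transporter, was at 64.6, 46.6 and 56.9 CPM against 98.0, 101 and 98.1 CPM (-0.82 ± 0.19, SE), with water libraries that hardly differed. DI21, a drought-induced gene, was at 37.5, 31.8 and 34.5 CPM with ethanol and at 73.0, 84.7 and 37.7 CPM with water (-0.91 ± 0.23, SE), and its mean in water-pretreated shoots was 1230 CPM at 7 DAD. In all 11 the ethanol and water values did not overlap.

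Photosynthesis genes were level between the treatment means, while the ethanol libraries differed among themselves. Of 37 light harvesting and photosystem genes, 21 had a fold change above 0 and 16 below, from -0.15 to 0.15, with a median of 0.00, and the 95% interval lay between -1 and 1 for all 37. Ethanol replicate 1 was the lowest ethanol library for 36 of the 37 and ethanol replicate 3 the highest for 33. The median was 0.10 without ethanol replicate 1, with 34 genes above 0, and -0.08 without ethanol replicate 3, with 31 below 0. LHCB1.3 was at 11800, 15800 and 17200 CPM in the ethanol libraries and at 16300, 15400 and 14800 CPM in the water libraries, so the replicates spread more widely than the treatments. The Calvin cycle and photorespiration list of 22 had a median of 0.01 and the chlorophyll synthesis list of 16 a median of 0.03, and in neither did a gene pass an unadjusted p of 0.05. RBCS1A, a Rubisco small subunit gene, was at 12300, 15300 and 17000 CPM against 15500, 13100 and 15600 CPM. At 0 DAD its mean had been 29100 CPM with water and 24700 CPM with ethanol. Rubisco and light harvesting genes belong to families with near-identical copies, so the division of reads among their members is uncertain.

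At 7 DAD these lists had parted. There, 37 of the 37 light harvesting and photosystem genes were called higher with ethanol, with a median of 2.2, and 6152 of all genes were called higher (32%) and 5501 lower (28.6%). The aliphatic glucosinolate list gave a like picture. These defence compounds derive from methionine, and the 16 genes of their synthesis had a median of -0.02 at 5 DAD, with 0 at an unadjusted p under 0.05, and of 3.33 at 7 DAD, with 16 called higher. BCAT4, which starts the chain elongation, was at 286, 230 and 336 CPM against 301, 294 and 285 CPM at 5 DAD (-0.04 ± 0.15, SE). MYB28, the main activator, was at 95.4, 73.1 and 88.0 CPM against 93.2, 77.5 and 83.6 CPM (0.01 ± 0.20, SE).

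Indole glucosinolate genes had a median of 0.08 over 10 genes, and only MYB51, an activator of this branch, was past an unadjusted p of 0.05, at 10.8, 18.3 and 8.84 CPM against 4.25, 6.52 and 5.39 CPM (1.21 ± 0.38, SE). Its groups did not overlap. The flavonoid and anthocyanin list leaned the other way, with a fold change below 0 for 17 of 21 tested genes and a median of -0.27 (-0.18 without ethanol replicate 3), but with 0 genes at an unadjusted p under 0.05. DFR, an anthocyanin branch enzyme gene, was at 31.4, 18.9 and 26.4 CPM against 51.5, 21.7 and 37.8 CPM (-0.52 ± 0.42, SE), which overlapped. The jasmonate list of 25 had a median of -0.02, and JAZ7, a repressor of the pathway, was the member past that p (1.79 ± 0.85, SE, at most 7.4 CPM).

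The senescence list had the lowest median of the 34 pathway lists, -0.87 over 8 genes, and rested largely on water replicate 3. SAG12, a cysteine protease gene of late senescence, was at 2.79, 1.18 and 2.26 CPM in the ethanol libraries and at 6.12, 1.86 and 238 CPM in the water libraries (-5.21 ± 1.69, SE). BGLU30 was at 2.24, 0.887 and 2.57 CPM against 1.76, 4.45 and 16.9 CPM (-1.96 ± 0.73, SE). SAG29, a SWEET sugar transporter gene, showed the reverse order within the water group, at 58.2, 70.6 and 7.35 CPM, against 20.6, 3.99 and 16.0 CPM with ethanol (-1.69 ± 0.52, SE). SAG12, BGLU30 and SAG29 were lower and SEN1 (AT4G35770) higher (0.72 ± 0.34, SE) at an unadjusted p under 0.05. Of all genes, 1.91% were lower and 2.16% higher at that p. Without water replicate 3 the median was -0.46 and 1 gene was lower at that p. Chlorophyll breakdown genes had a median of 0.01 over 8 genes, with 0 at that p. Their lowest member was NYE1 (-0.63), with means of 28.5 CPM with ethanol and 44.1 CPM with water.

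Growth and wall genes differed little. Of 11 tested alpha-expansin genes, which loosen walls during cell expansion, 9 had a fold change below 0, with a median of -0.31. EXPA4 was at 43.6, 39.8 and 43.5 CPM against 61.2, 69.4 and 57.6 CPM (-0.57 ± 0.20, SE) and EXPA15 at 15.4, 15.1 and 17.5 CPM against 24.0, 29.9 and 25.1 CPM (-0.72 ± 0.24, SE). Both were past an unadjusted p of 0.05 and did not overlap. The list median was -0.12 without water replicate 2 and -0.18 without ethanol replicate 2, with 2 genes lower at that p in both cases. The secondary wall and xylem list had a fold change below 0 for 15 of 16 tested genes and a median of -0.30, with 0 genes at that p. Its mean log2 CPM was 3.12, 3.09 and 3.12 with ethanol and 3.32, 3.73 and 2.89 with water. In the fits without water replicate 2 or 3, 17 genes of the list were tested. Their median was 0.00 without water replicate 2, the library with the highest floral marker sum. Without water replicate 3, the lowest water library for 13 of the 16, it was -0.48. Replication and cell cycle genes had a median of -0.03 over 22 genes and cuticular wax genes of -0.06 over 15, with 0 genes at that p in either.

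The remaining lists were centred near 0. Aquaporins had a median of 0.11 over 16 genes, with fold changes from -0.37 to 0.40. Without overlap, 3 were higher and 2 lower, against 5.61% and 4.95% of all genes. PIP2A, a plasma membrane water channel gene, was at 802, 770 and 935 CPM against 768, 769 and 740 CPM, without overlap (0.14 ± 0.14, SE). Guard cell genes had a median of 0.05 over 14, antioxidant enzymes of -0.05 over 12, morning clock genes of -0.06 over 8 and day and evening clock genes of 0.05 over 11. Within these, only SAPX, a stromal ascorbate peroxidase gene, was past an unadjusted p of 0.05 (0.36 ± 0.17, SE). Heat shock genes had a median of 0.02 over 14 tested genes, spread from -3.36 to 2.04 at low counts, with 0 at that p. Starch genes had a median of 0.00 over 22, and SEX1 and BAM3 (AT4G17090), which act in starch breakdown, were higher at 0.30 ± 0.12 and 0.50 ± 0.23 (SE). Among 15 tested genes of sucrose and trehalose metabolism, the median was 0.05, TPS8 was higher at that p, and SUS3, a sucrose synthase gene, was lower (-0.85 ± 0.40, SE).

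**Figure D5:**
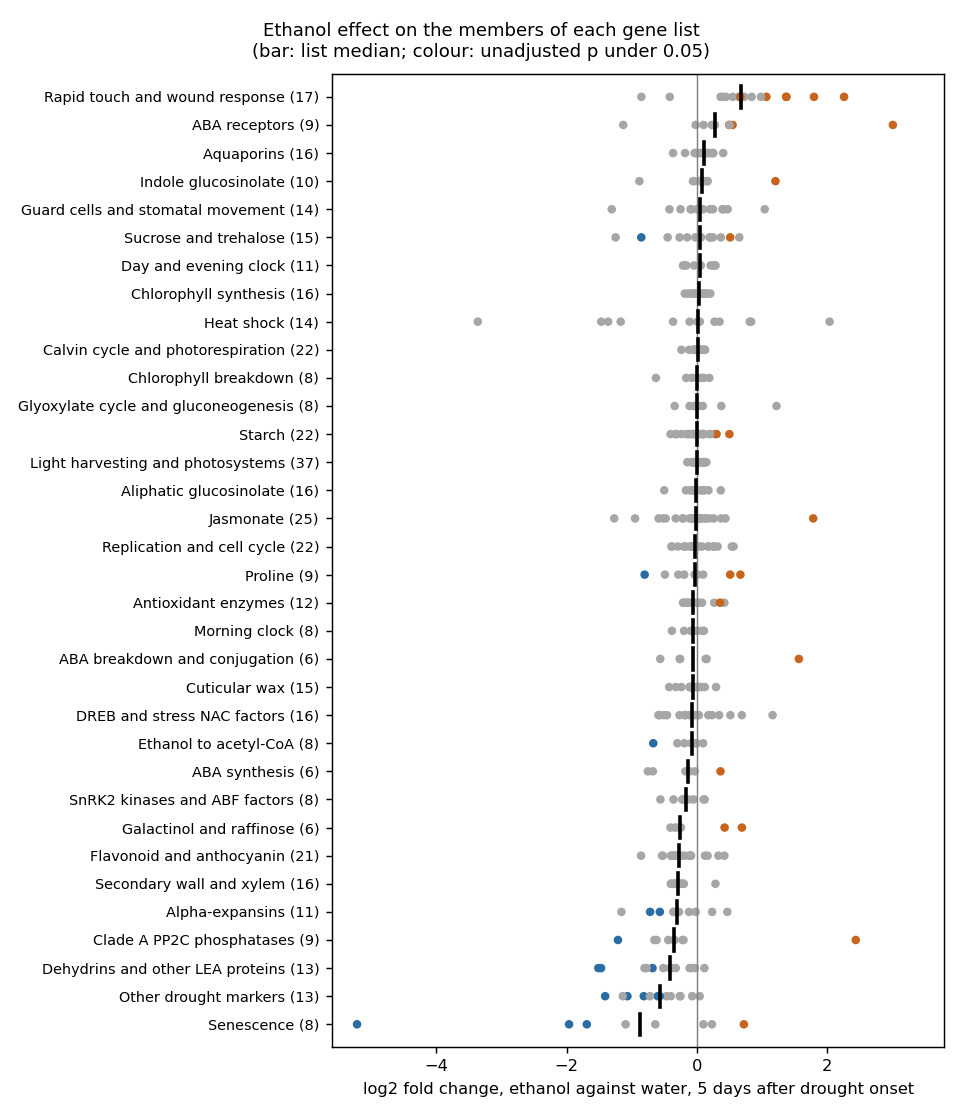
Log2 fold change, ethanol against water at 5 DAD (x), of every tested member of the 34 pathway lists (y, number tested in brackets). Black bars are list medians, and coloured points passed an unadjusted p of 0.05 (orange higher, blue lower with ethanol). Most medians lie near 0, with the touch and wound list highest (0.67) and the senescence list lowest (-0.87).

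The extremes of fold change among genes at an unadjusted p under 0.05, without overlap and with a mean of at least 10 counts, were mostly low in counts. Of the 287 such genes higher with ethanol and 187 lower, the 10 highest and 10 lowest were taken. AT5G51190, ERF104 and AT4G27280, described above, were among the highest. BAP1, a membrane-binding inhibitor of cell death, was at 2.31, 10.8 and 2.98 CPM against 0.622, 0.828 and 1.86 CPM (2.19 ± 0.62, SE), and AT4G03610, annotated as a metallo-hydrolase, at 1.84, 1.92 and 1.64 CPM against 0, 0.310 and 0.093 CPM. The other 5 were AT1G44830, a DREB subfamily A-5 member, AT2G04070, a MATE efflux protein, AT5G28630, a glycine-rich protein, and the uncharacterized AT1G06475 and AT3G50800, with fold changes from 1.84 to 2.17. AT3G50800 overlaps another gene on the same strand, and overlapping reads were counted for both.

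At the low end, PGAZAT, a polygalacturonase gene of abscission, was at 0.748, 0.739 and 0.103 CPM with ethanol and at 1.97, 1.24 and 12.0 CPM with water (-3.22 ± 1.3, SE). ACS2, an ethylene synthesis gene, was at 0.544, 0.296 and 1.23 CPM against 1.45, 2.69 and 6.69 CPM (-2.35 ± 0.78, SE), and GSTU3, a glutathione transferase gene, stood at -2.50 ± 1.06 (SE). All 3 were highest in water replicate 3. HKT1, a sodium transporter gene, was at 1.09, 0.148 and 0.925 CPM against 1.97, 6.42 and 2.51 CPM (-2.21 ± 0.62, SE). The photoreceptor gene PHYD, the kinase gene SNRK2.7 and the loci AT4G22513, AT1G47400, AT1G47395 and AT5G67020 had fold changes from -2.04 to -1.78. None of the 20 genes was called in the main edgeR fit.

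The 5 DAD effect was set against those of the harvests on either side by the difference of effects within the edgeR fit. Compared with 3 DAD, it differed for 3 of 19249 genes (0.0156%) at an adjusted p under 0.1, with 1040 at an unadjusted p under 0.05. The 3 were XTH3, AT4G33355 and GRP17, which were lower with ethanol at 3 DAD (log2 fold changes of -3.60, -3.72 and -2.43) and stood at -0.66, 0.38 and 0.33 at 5 DAD. Compared with 7 DAD, it differed for 9062 genes (47.1%), of which 4100 had a more positive and 4962 a more negative effect at 5 DAD. Of the 129 genes named by the rules of the analysis, 82 were among the latter set and 0 among the former. Many of the 129 were chosen on their 5 DAD values, which also enter both differences, so these counts are not independent evidence.

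The difference from 7 DAD took in most of the drought genes. It was called for 11 of the 13 dehydrin and LEA genes, whose median fold change went from -0.42 at 5 DAD to -3.96 at 7 DAD, and for 11 of the 13 other drought markers, which went from -0.57 to -2.16. RAB18 went from -1.51 to -5.26 (difference 3.75, adjusted p = 7.2e-05 by edgeR). Among the 17 rapid touch and wound genes the difference was called for 8, against 47.1% of all genes, and the median went from 0.67 to 0.40. At 7 DAD 8 of the 17 were called higher with ethanol and 2 lower, against 32% and 28.6% of all genes. TCH4, higher with ethanol at 5 DAD, had means of 91 CPM with ethanol and 1190 CPM with water at 7 DAD. For ERF104 the effects at 5 and 7 DAD, 2.26 and 1.06, were not called different (adjusted p = 0.11 by edgeR), nor were those of MYB73, 1.23 and 1.13 (adjusted p = 0.84 by edgeR).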

How the data were processed

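RNA-seq libraries of shoots (Lasy-Seq, read 1 only) were made for 10 groups of 3. The authors demultiplexed with bcl2fastq, trimmed with Trimmomatic, aligned to TAIR10 with HISAT2 (maximum intron length 5000) and counted stranded primary alignments per gene with featureCounts. Introns were included, and reads over overlapping genes were counted for both. The deposited counts are whole, unnormalized reads per gene, and they hold no molecular identifiers. The normalized table was not used here, since the tests need raw counts.

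Counts of all 30 libraries entered 1 model in edgeR 4.0.16 (R 4.3.3), with 10 group means and 20 residual degrees of freedom, after the low-count filter by group (19249 of 27417 genes kept) and TMM scaling. The quasi-likelihood test was adjusted by Benjamini-Hochberg over all tested genes and called under 0.1, the threshold of the study. SE is the size of the log2 fold change over the root of F. Log2 CPM used a prior count of 2. DESeq2 1.42.0 was the other test. Drought-induced and drought-repressed genes came from water 7 DAD against water 0 DAD (log2 fold change of at least 1, or 3 where strong, adjusted p under 0.1 by edgeR). Lists carry counts and medians, with no set test. The procedure was tested on simulated data. Upstream windows came from RefSeq TAIR10.1, which matched 26720 identifiers (97.5%). The count table holds no coordinates.

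The comparison and the 37 gene lists were chosen with earlier results of these data known. Genes named were the 16 genes singled out by the study, the 10 highest and 10 lowest fold changes among genes at an unadjusted p under 0.05 with no overlap and a mean of at least 10 counts, genes called by edgeR or DESeq2, and in each list the members at that p and its lowest and highest members. Other genes were named for their role after their values were seen. Alternatives changed the scaling, the filter, the libraries fitted, the test and the replicate block, and left out each 5 DAD library.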

Additional observations from a re-analysis of the deposited data

Results flagged for a closer look

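The effect of ethanol at 5 DAD differed from that at 3 DAD for 3 genes, by the difference of effects in the edgeR fit at a Benjamini-Hochberg adjusted p under 0.1. The differences of log2 fold changes, 5 DAD minus 3 DAD, were 2.94 for XTH3, 4.11 for AT4G33355 and 2.77 for GRP17. Against 7 DAD the effect differed for 9062 genes by the same test.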

How the results depend on the processing

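The counts of calls were the results that depended most on the processing. At 5 DAD the main edgeR fit called 0 genes. Without the filter on low counts edgeR called 5 (RAV2, AT4G27280, MYB73, AT5G51190 and ERF104). With the 6 libraries of 5 DAD fitted alone it called 5 (AT3G46600, AT4G27280, MYB73, AT5G51190 and ERF104). It called 1 (MYB73) with the replicate number as a block, while DESeq2 called 11. Leaving out 1 library gave 0 to 5 calls, with 5 without water replicate 3 (MYB73, DI21, LTP3, SAG29 and AT4G33550). The 3 genes whose effect differed from 3 DAD became 1 with library totals, 6 with the replicate block, 17 with DESeq2 and 1 to 2 on leaving out 1 library. The cause of these moves was not tested. Genes lower at an unadjusted p under 0.05 numbered 237 with a mean of at least 50 counts, where fewer genes were tested (13514 in place of 19249). Deviations of same-numbered 5 DAD libraries correlated at 0.0154, -0.0974 and -0.0326, against -0.204 to 0.198 for libraries with other numbers. These values gave no sign of pairing, but so few pairs cannot settle whether the numbers pair the samples. Of the main counts and positions recomputed under the alternatives, 79 stayed within 1.5 times the count or 1 SD and 14 moved, and of the list medians 464 stayed and 15 moved. The log2 fold changes of 14 genes near 0 or at low counts changed sign on leaving out 1 library, over -0.14 to 0.22 for DREB1A, -0.32 to 0.15 for ALDH2B7, -0.20 to 0.23 for ALDH2C4, -0.108 to 0.0341 for PMDH2, -0.13 to 0.17 for COR413IM1, -0.0209 to 0.239 for SNRK2.3, -1.82 to 1.79 for JUB1, -0.55 to 0.26 for PGLP1, -0.0306 to 0.333 for LHY, -0.67 to 0.34 for BOA, -0.11 to 2.93 for APX2, -2.35 to 0.65 for MYB61, -0.39 to 0.99 for CYCB2;4 and -5.70 to 0.57 for IRT1.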
